A study of Homo sapiens with 4 samples.

Results

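The genes described here are the cadherins CDH1, CDH3 and CDH17, examined for binding of the repressor SNAIL1 in a colorectal cancer line. Their members are all called binding peaks whose summit lay within 10 kb of one of these 3 gene bodies. Only 1 of the 2177 peaks in the 4 deposited lists qualified: it lay inside CDH1 and was called in 1 of the 2 induced libraries. With the gene bodies given here, CDH3 and CDH17 had no peak in their windows in any list. A longer CDH3 model could hold an induced 2 peak that lay between CDH3 and CDH1, which was not checked. No list had a peak within 1 kb of the start of any of the 3 genes. Having no peak was the usual state of windows this long, and the share of all promoters with a peak was not calculated.

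Cadherins are calcium-dependent adhesion proteins that span the cell membrane. CDH1 (E-cadherin) holds epithelial cells together at adherens junctions, where its tail binds catenins. CDH3 (P-cadherin) is a closely related classical cadherin, and CDH17 (liver-intestine cadherin) is a divergent cadherin found in the intestinal epithelium, with a short cytoplasmic tail that lacks the catenin-binding region. SNAIL1 is a zinc-finger protein that represses transcription from E-box elements and drives epithelial-mesenchymal transition. The CDH1 promoter is its textbook target, so the question at these genes is whether binding was recorded there.

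The cells were LS174T, an established human colorectal adenocarcinoma line, in a derivative that makes murine SNAIL1 with a hemagglutinin (HA) tag when given doxycycline. For the 2 induced libraries (induced 1 and induced 2) the drug was present at 0.1 mg/ml over 6 h. The 2 uninduced libraries (uninduced 1 and uninduced 2) came from the same derivative without it, and an anti-HA antibody was used for all 4. Binding by the cell's own SNAIL1, which has no tag, was thus not measured, and the labels do not say whether the derivative is 1 clone. Nor do they say whether the replicates came from separate cultures, so p-values measure only the spread between these libraries, which may be technical. RNA and protein of the cadherins were not measured in these files.

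The lists held 823 peaks in induced 1, 1338 in induced 2, 5 in uninduced 1 and 11 in uninduced 2. Read totals are unknown. The number of reads over each summit was recovered from the listed values and had a median of 51 in induced 1 and 35 in induced 2. Induced 1 had 1.23 times the summit reads of induced 2 in total over the 661 induced 1 peaks that overlapped a peak of induced 2. The read intervals below are exact Poisson 95% intervals and cover counting error only.

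CDH1 was the 1 gene of the 3 with a peak in its window. Its body spans 68771195 to 68869444 on chromosome 16 (hg19, plus strand). The peak of induced 1 lay from 68778837 to 68779098, with its summit 7.79 kb downstream of the gene's start. This is within the gene body and outside the promoter, taken here as 1 kb to either side of the start. No exon map of hg19 was used, so exon and intron were not told apart. Induced 2, uninduced 1 and uninduced 2 had 0 peaks within 10 kb of the CDH1 body.

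The CDH1 peak was a weak one. The summit was covered by 38 ChIP reads (95% interval 26.9 to 52.2), counted before the scaling used in peak calling. The local background was 8.75 reads when converted to the scale of those reads, and 6.25 on the scale used in peak calling. The authors' fold enrichment was 3.88, against a median of 5.33 for induced 1, and the listed −log10 q was 5.58. By fold it stood at the 10.5th percentile of its list, by summit reads at the 13.4th, by −log10 q at the 12.3rd and by width, at 262 bp, at the 12.1st. Of the 65 peaks that induced 1 had on chromosome 16, 8 had a lower fold. The CDH1 peak was therefore near the bottom of its list by each of these measures.

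The nearest peak of induced 2 lay on the other side of the CDH1 start. It ran from 68756119 to 68756524 on chromosome 16, with its summit 14.9 kb upstream of CDH1 and 23.3 kb beyond the end of CDH3 at 68732971, in the 38.2 kb between both genes. It was thus outside the 10 kb windows of both. The end of CDH3 is that of the hg19 gene body given here, and other gene models were not used. A CDH3 model that runs further toward CDH1 could hold this peak, which was not checked. RefSeq's GRCh38.p14 gene table lists no other protein-coding gene between CDH3 and CDH1 by order of gene starts.

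This upstream peak had nearly the same fold as the one inside CDH1 and stood higher in its own list. It had 31 reads (95% interval 21.1 to 44.0) over a background of 7.23 reads, a fold of 3.89 and a −log10 q of 6.80. Its fold stood at the 18.7th percentile of induced 2, its −log10 q at the 22.9th and its summit reads at the 34.5th. At 406 bp it was wider than the peak of induced 1 and stood at the 72.7th percentile of its list by width. The summits of the CDH1 peak and the upstream peak were 22.7 kb apart, so they mark separate sites, each called in 1 induced library. Summits this near were found elsewhere too. Of the unshared peaks of induced 1, 26.5% had an induced 2 summit at most that far away. Of the unshared peaks of induced 2, 11.7% had one of induced 1. In these shares the near summit could belong to a shared peak, and the CDH1 and upstream peaks are themselves counted.

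**Figure D1:**
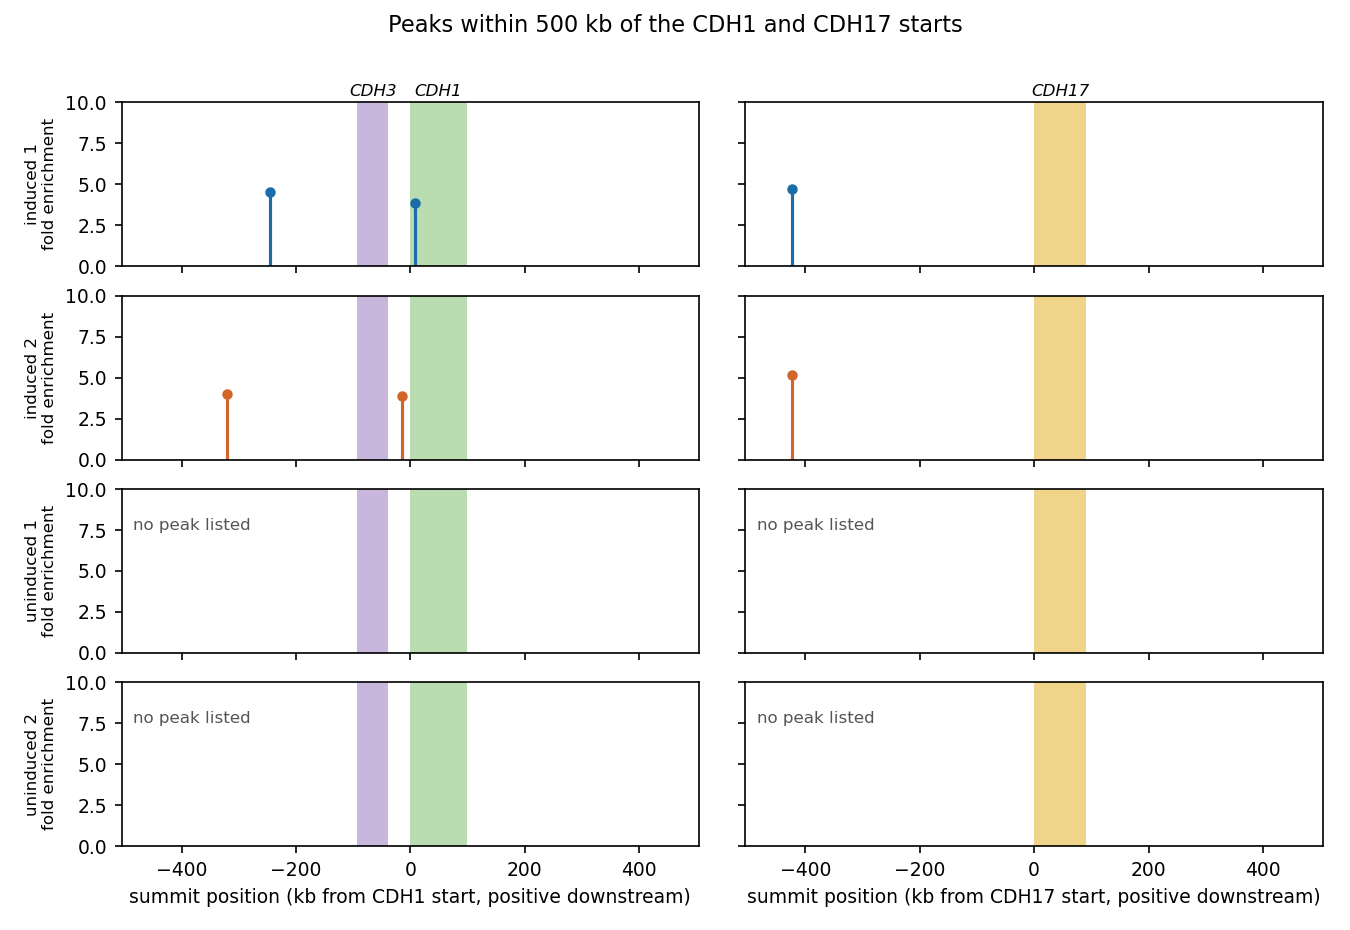
Fold enrichment of every listed peak (vertical axis) by summit position in kb from the start of CDH1 (left) or CDH17 (right), with 1 row per library and gene bodies shaded. Inside the shaded bodies there is a single peak, that of induced 1 at 7.79 kb in CDH1, and both uninduced rows are empty.

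Peaks in 1 induced library only were more frequent at low fold than at high fold, but most low-fold peaks of induced 1 still recurred. Over the whole lists, 80.3% of induced 1 peaks were overlapped by a peak of induced 2, and 49.3% of induced 2 peaks by a peak of induced 1. With each list divided by fold into 10 groups of about equal size, the group of induced 1 that holds the CDH1 peak (folds of 3.88 to 4.23) had 48 of 82 peaks recurring in induced 2 (58.5%, exact 95% interval 47.1 to 69.3). In the group of induced 2 that holds the upstream peak (folds of 3.55 to 3.93), 37 of 134 recurred in induced 1 (27.6%, 20.2 to 36.0). Neither the CDH1 peak nor the upstream peak recurred. Of the 162 unshared peaks of induced 1, 29 had a lower fold than the CDH1 peak, and of the 678 of induced 2, 178 had a lower fold than the upstream peak.

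**Figure D2:**
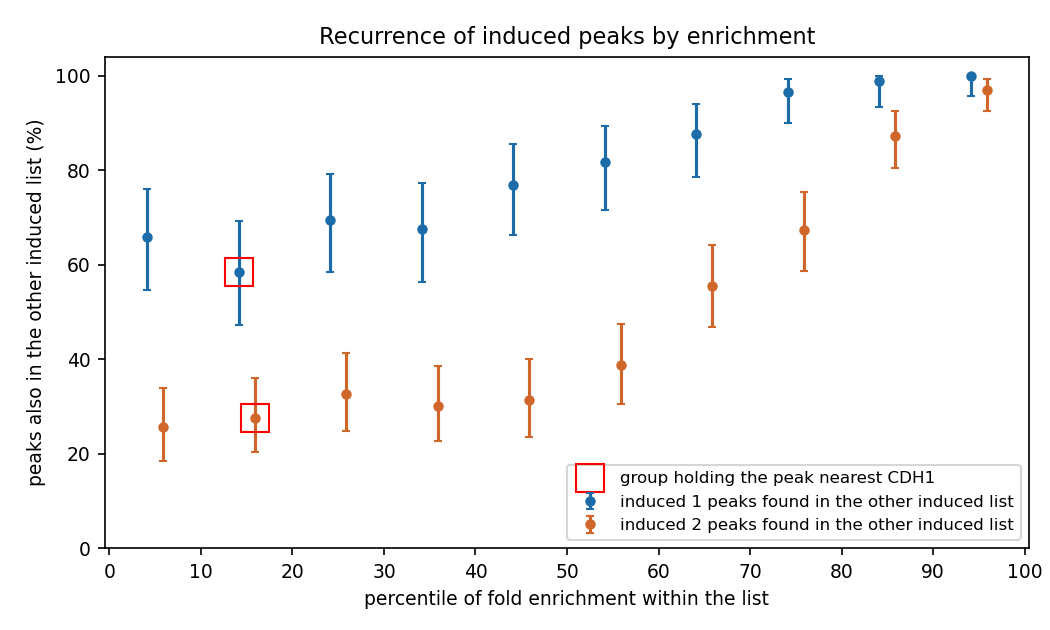
Share of peaks of each induced library that were also listed in the other (vertical axis, %, with exact 95% intervals) by percentile of fold enrichment within the list. Red squares mark the groups that hold the CDH1 peak (58.5%, induced 1) and the upstream peak (27.6%, induced 2), both in the low range of recurrence.

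Reads of either peak, carried over to the other library, lay above the number that reached its lowest listed −log10 p at a median background, but counting error leaves the margin small. Scaled by 1.23, the 38 reads in CDH1 correspond to 30.9 reads in induced 2 (21.9 to 42.5). At the median background of its peaks, 6.33 reads, 21 reads were enough in induced 2 to reach the lowest −log10 p of its list, 5.50. The 31 reads of the upstream peak correspond to 38.1 in induced 1 (25.9 to 54.1). There 28 reads sufficed at the median background of 8.40 and the lowest listed −log10 p of 5.52, and the interval includes that value. With the ratio of the lowest backgrounds, 1.45, in place of 1.23, the values were 26.3 reads (18.6 to 36.0) in induced 2, an interval that includes 21, and 44.9 (30.5 to 63.7) in induced 1, an interval above 28. The carried-over intervals hold the counting error of the library that listed the peak only, not that of the library they are set against. Each peak was also taken because it was listed, which favours high counts. The intervals therefore do not settle whether a site should have been listed. The limits of 21 and 28 reads assume those backgrounds at the sites. The caller can also set a minimum length (the narrowest peak of either list was 250 bp). Whether local background or peak length kept the sites from being listed was not tested.

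**Figure D3:**
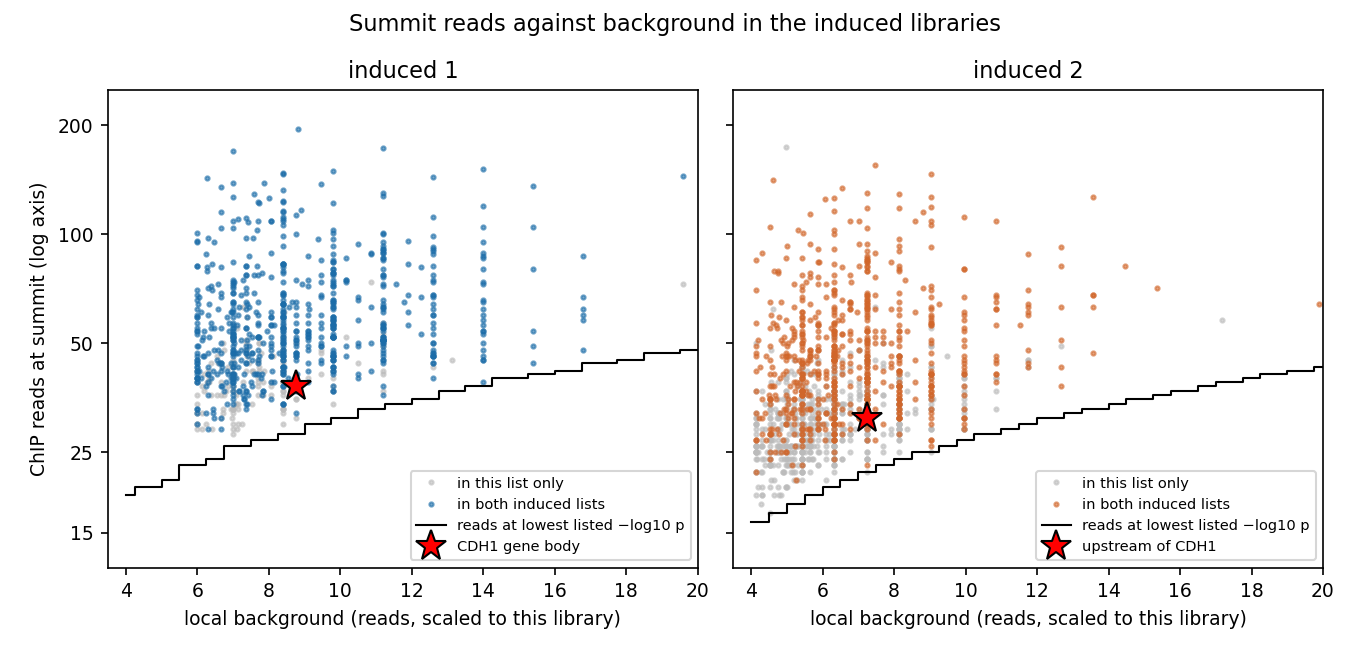
ChIP reads at the summit (vertical log axis) against local background in reads for the peaks of induced 1 (left) and induced 2 (right), within the ranges drawn; the black line gives the reads needed to reach the lowest listed −log10 p. Stars mark the CDH1 peak (38 reads over 8.75) and the upstream peak (31 over 7.23). Both lie above the black line, which is at 28 reads for a background of 8.75 in induced 1 and 22 for 7.25 in induced 2. Their −log10 p were 9.81 and 10.96, against lowest listed values of 5.52 and 5.50.

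The promoters of the 3 cadherins carried no listed peak in any of the 4 libraries. At CDH1 the nearest summits were those at 7.79 kb in induced 1 and 14.9 kb in induced 2. Lists of peaks give no read number where nothing was called, so this bounds the signal and does not set it to 0. At the lowest background found in each list, a summit needed 23 reads in induced 1 and 16 in induced 2, or 3.30-fold in both, to reach the lowest listed −log10 p. At the median background the values were 28 reads and 21 reads. These limits are calculated. The fewest reads at any listed summit were 28 in induced 1 and 17 in induced 2, so the limits in practice may be higher. Enrichment at the CDH1 start below about the calculated limits was not detectable in these lists, and at a higher background more reads would have been needed. The share of all promoters with a listed peak was not calculated. Windows as long as that of CDH3 are far longer than a promoter. Over all chromosomes, 1.84% of them held a summit of induced 1 and 2.91% one of induced 2. Promoters without a peak are therefore not read here as particular to these genes.

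With the gene body given here, CDH3 had 0 peaks in its window in all 4 libraries. Its body spans 68678151 to 68732971 on chromosome 16 (plus strand). The nearest summit on the side away from CDH1 lay 153 kb from the body in induced 1, at a peak from 68524931 to 68525244 with 40 reads and a fold of 4.55. In induced 2 it lay 228 kb away, at a peak from 68450494 to 68450758 with 23 reads and a fold of 4.00. These are also different sites, and neither recurred in the other induced library. Toward CDH1, the nearest summits were the peaks already described, 46.0 kb from the CDH3 body in induced 1 and 23.3 kb in induced 2.

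CDH17 stood furthest from any peak. Its body spans 95139399 to 95229531 on chromosome 8 (minus strand, so the gene starts at the higher coordinate). The nearest peak lay upstream of the gene and was found in both induced libraries, with summits 423.6 kb and 423.7 kb from the gene's start. It had 45 reads (32.8 to 60.2) and a fold of 4.74 in induced 1, from 95653013 to 95653289. In induced 2 it had 37 reads (26.1 to 51.0) and a fold of 5.19, from 95652986 to 95653369. On the downstream side the nearest peak was 33433.8 kb away in induced 1 and 4224.7 kb away in induced 2. Chromosome 8 held 35 peaks in induced 1 and 59 in induced 2, fewer than the 65 and 94 of chromosome 16. How far a gene on either chromosome typically lies from a peak was not calculated.

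Sites that recurred in both induced libraries lay outside the windows of all 3 genes. The nearest was 409.8 kb from the body of CDH3, 423.6 kb from that of CDH17 and 502.9 kb from that of CDH1. Typical distances from a gene to a recurring site were not calculated, so these are not ranked as far or near. For CDH1 the nearest was 502.9 kb below the gene body, at 68268117 to 68268502 in induced 1, with the matching peak of induced 2 at 68268144 to 68268573. It had 83 reads and an 8.61-fold enrichment in induced 1, and 79 reads and a 9.72-fold enrichment in induced 2. Its read intervals, 66.1 to 102.9 and 62.5 to 98.5, lie above that of the CDH1 peak. The nearest above CDH1 was 2888.7 kb away, with folds of 5.66 and 9.99. Chromosome 16 held 65 peaks in induced 1 and 94 in induced 2, of which 54 in each were shared. On chromosome 8, 25 in each were shared.

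A window as long as that of CDH1, with its 10 kb flanks, often holds no peak. When all chromosomes were divided into consecutive windows of that length, 2.81% held a summit of induced 1 and 4.41% one of induced 2. On chromosome 16 the shares were 7.22% and 9.32%. For windows as long as that of CDH3 they were 1.84% and 2.91% over all chromosomes and 4.73% and 6.31% on chromosome 16. For CDH17 they were 2.61% and 4.13% over all chromosomes and 2.19% and 3.70% on chromosome 8. These windows cover gene-poor sequence as well and are no match for genes. Having no peak, as at CDH3 and CDH17, was thus the usual state of a window of that size.

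Induced and uninduced cells could not be separated at these genes. The 3 windows together held 1 peak in induced 1 and 0 in induced 2, a mean of 0.5 ± 0.707 (SD, n = 2), and 0 in both uninduced libraries. The difference was within the spread between the induced replicates (exact two-sided permutation test, p = 1; with 2 libraries against 2 the smallest p is 0.333). No site was shared by the induced libraries in these windows, so their reads could not be compared at any cadherin site. The uninduced lists had no peak on chromosomes 16 and 8 at all. They are short and their lowest listed −log10 p were 13.5 and 7.74, so the level at which a summit would have been called there is known less closely.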

How the data were processed

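Per the submitters' processing notes, Trimmomatic 0.36, BWA 0.7.15 and MACS2 2.1.1.20160309 were used with the human build hg19. These notes and the labels do not state the threshold, the treatment of duplicates or the control paired with each library. Input chromatin served as reference per the series' design text. The authors deposited 1 peak list per library, with the fold enrichment (a ratio over local background), −log10 p, −log10 q and summit offset of each peak. Each line's deposited score equals 10 times its −log10 q without the decimals, and no peak number was missing.

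Summits were placed within 10 kb of hg19 gene bodies. Lists were compared by overlap of at least 1 bp (Python 3.11.15, scipy 1.17.1). Reads at summits were solved from fold (pseudocount 1 in each term) and the Poisson −log10 p, and matched the listed value within 0.0005 for every peak, with pileups of induced 1 scaled down by 1.40. On simulated data 100% of 300 unscaled and of 300 scaled pileups were recovered. The members, lists and alternatives were chosen with earlier results of these data known. The rule for named features was the 3 genes, every peak in their windows and the nearest peak outside. No hg19 sequence or annotation was used, so motifs, other cadherins and adherens junction partners were not analysed here, and strands are textbook knowledge. Read comparison at shared cadherin sites was not run, since there were none.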

Additional observations from a re-analysis of the deposited data

How the results depend on the processing

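The mean difference of 0.5 peaks between induced and uninduced libraries became 0 at a fold of at least 5, since the CDH1 peak has a lower fold, and 1 with windows of 50 kb, which take in the upstream peak of induced 2 (exact permutation p = 0.333). Leaving out 1 library gave 0 to 1: it was 0 without induced 1 and 1 without induced 2. It stayed 0.5 at a −log10 q of at least 5, with windows of 5 kb and with any base of the peak counted. These settings could not change it. The CDH1 peak lies inside the gene body with a −log10 q of 5.58, and no other peak had a base in a window. The difference also stayed 0.5 with the libraries paired by a replicate block (sign-flip test, exact p = 1). Whether the replicate numbers pair the libraries could not be checked from lists of peaks. The number of cadherin sites in both induced libraries was also 0 with windows of 50 kb; the other alternatives for it were stricter and could not raise it. The number of promoter sites was 0 with promoters of 2.5 and 5 kb. The scaling alternatives for reads at shared cadherin sites were not run, as no such site exists. The reads needed at a summit to reach the lowest listed −log10 p were calculated. At the lowest background of each list they were 16 in induced 2 and 23 in induced 1. At the median background they were 21 and 28. The fewest reads at any listed summit were 17 in induced 2 and 28 in induced 1. Binding below these levels at the cadherin promoters would thus not be seen. Scaling the reads of the CDH1 and upstream peaks by the background ratio was an alternative chosen after seeing the data.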
